A study of Mus musculus with 48 samples.

Results

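A set of 8 genes that mark the granule cells of the dentate gyrus (DG), or that part its dorsal from its ventral pole, were followed across 16 neuron populations of the mouse hippocampus. The 8 were Prox1, Dsp, Glis3, C1ql2, Tdo2, Tnnt2, Pla2g2f and Adamts9, of 37620 genes in the count table. They had been chosen from earlier results of the same libraries. Their levels in granule cells, and the contrasts of DG with CA1, of DG with CA3 and of dorsal with ventral DG, are therefore given as a description with no test. Tests of these 8 genes are limited to contrasts that do not involve granule cells.

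The series holds 48 RNA sequencing libraries, 3 for each population. The populations were dorsal and ventral granule cells, dorsal and ventral CA3 pyramidal cells, PV interneurons and SST interneurons (named for parvalbumin and somatostatin) and 10 populations of CA1 pyramidal cells. The CA1 cells were dorsal, intermediate or ventral, proximal or distal, superficial or deep, or were grouped by their projection, to the postsubiculum for dorsal cells and to amygdala or nucleus accumbens for ventral ones. The PV and SST cells also came from CA1. Fluorescent neurons were picked by hand from dissected slices, so each library is a pool of the cells that carried a label, and the labels do not say what made them fluoresce. The mouse line, age and sex were not given in the labels used here, and no treatment is named for any group. The design text calls the 3 libraries biological replicates. Whether they came from different animals was not stated, and the tests below weigh differences against the spread between libraries.

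Granule cells are the excitatory neurons of the dentate gyrus. Their axons, the mossy fibres, contact CA3 pyramidal cells and the mossy cells of the hilus. Prox1, a homeodomain transcription factor, is needed for these cells to become and remain granule cells rather than CA3-like pyramidal cells, and is also used by a group of cortical and hippocampal interneurons. The dorsal and ventral poles of the hippocampus differ in their connections, with the dorsal pole known for spatial memory and the ventral pole for emotional behaviour.

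The granule cell libraries held 6.78 to 7.85 M gene reads at the dorsal pole and 14.76 to 16.47 M at the ventral pole, within a range of 5.12 to 31.98 M over all 48. Levels are in CPM, which divides a gene's reads by the TMM-scaled total of its library. A count of 3 reads equalled on average 0.398 CPM in dorsal and 0.179 CPM in ventral granule cells, which sets the floor for a gene with no read. Of 25 other granule cell markers, 23 were higher in DG than in CA1 and 22 were higher in DG than in CA3 by edgeR's quasi-likelihood test at an adjusted p under 0.05, and the other 2 and 3 were not called. Over all 15549 genes tested, 33.1% were called between DG and CA1, with 15.7% higher in DG, and 36.5% between DG and CA3, with 16.9% higher in DG. Stxbp6, which codes for a syntaxin-binding protein, averaged 424.8 ± 111 CPM in DG (SD, n = 6), against 11.8 ± 12.9 CPM in CA3 and 2.55 ± 4.79 CPM in CA1 (n = 6 each). Of 22 granule cell transcription factors tested, 12 were called higher and 6 lower in DG than in CA1. Against CA3, 10 were higher and 3 lower in DG. Over all genes tested, 17.4% were lower in DG than in CA1 and 19.6% lower than in CA3. Both lists were chosen with earlier results of these data known, so the counts describe the libraries and do not test their label.

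Markers of other cells were not alike at the poles. The summed level of 5 mossy cell markers was 0.816 to 9.81 CPM in dorsal and 18.9 to 30.4 CPM in ventral granule cells, with Calb2 and Drd2 at 0 reads in every dorsal library and Csf2rb2 at 0 in all 6. The 4 fibroblast and mural markers summed to 1.49 to 4.02 CPM in dorsal and 71.4 to 98.7 CPM in ventral cells, nearly all of it Dcn. The 5 GABAergic markers summed to 88.5 to 107 CPM in dorsal and 43.0 to 63.0 CPM in ventral cells. In that list Gad1 and Gad2 carried the signal, while Lhx6 was at 0 in all 6 libraries and Slc32a1 had at most 0.136 CPM. The 5 immature granule cell markers, which share Calb2 with the mossy cell list, summed to 15.4 to 42.1 CPM in dorsal and 54.1 to 88.7 CPM in ventral cells, with Igfbpl1 and Eomes at 0 in all 6 libraries. The 4 CA3 pyramidal markers summed to 129 to 242 CPM in dorsal and 218 to 283 CPM in ventral granule cells. In CA3 itself they summed to 907 to 1033 CPM in dorsal and 382 to 590 CPM in ventral cells. The 4 oligodendrocyte markers summed to 43.6 to 101 CPM in dorsal and 102 to 110 CPM in ventral granule cells. In pools of cells, fewer cells of a type and less RNA per cell cannot be told apart.

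Of the 8 promoters, 5 are shown, because they belong to the gene with the highest level at both poles, to the gene with a large difference between poles at a measurable level in each, and to the 3 genes with no read at one pole. Each sequence is the 250 bases before the transcription start from RefSeq on GRCm38.p6, written 5′ to 3′ on the strand of the gene, with E-boxes (CANNTG, either strand) in capitals. Prox1 lies at chr1:190170828-190171077 (minus strand), Dsp at chr13:38151044-38151293 (plus strand), Tnnt2 at chr1:135836084-135836333 (plus strand), Pla2g2f at chr4:138757599-138757848 (minus strand) and Adamts9 at chr6:92943535-92943784 (minus strand). For Prox1 and Tnnt2, which have 2 windows in the table, the most upstream start was taken.
Prox1: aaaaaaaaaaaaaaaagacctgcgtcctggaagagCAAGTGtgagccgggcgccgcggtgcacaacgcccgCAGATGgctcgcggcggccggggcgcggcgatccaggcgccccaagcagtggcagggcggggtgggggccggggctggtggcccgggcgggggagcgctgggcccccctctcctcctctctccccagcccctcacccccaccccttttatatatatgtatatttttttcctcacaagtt
Dsp: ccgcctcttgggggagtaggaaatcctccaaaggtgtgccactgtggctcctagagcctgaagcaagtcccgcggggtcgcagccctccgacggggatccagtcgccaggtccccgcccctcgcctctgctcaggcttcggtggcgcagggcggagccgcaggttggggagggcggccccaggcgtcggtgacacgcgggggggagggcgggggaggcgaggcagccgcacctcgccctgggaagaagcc
Tnnt2: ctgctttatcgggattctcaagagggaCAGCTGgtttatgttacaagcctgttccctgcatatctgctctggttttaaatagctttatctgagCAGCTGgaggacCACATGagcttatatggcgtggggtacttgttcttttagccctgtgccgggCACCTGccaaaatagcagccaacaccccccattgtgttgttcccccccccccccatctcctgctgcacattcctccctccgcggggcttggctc
Pla2g2f: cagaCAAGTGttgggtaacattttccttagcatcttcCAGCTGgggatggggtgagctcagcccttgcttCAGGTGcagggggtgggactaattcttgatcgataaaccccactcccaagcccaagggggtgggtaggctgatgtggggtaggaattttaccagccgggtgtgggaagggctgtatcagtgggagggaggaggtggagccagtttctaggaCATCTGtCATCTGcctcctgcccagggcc
Adamts9: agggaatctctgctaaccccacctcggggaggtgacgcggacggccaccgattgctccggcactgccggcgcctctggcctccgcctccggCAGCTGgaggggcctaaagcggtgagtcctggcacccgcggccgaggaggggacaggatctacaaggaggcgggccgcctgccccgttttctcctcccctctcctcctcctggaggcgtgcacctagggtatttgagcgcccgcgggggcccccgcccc

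The E-box, the core sequence read by NeuroD-type factors, is common: 66.2% of 32851 promoter windows of 250 bases held at least 1. It was found 5 times in the Pla2g2f window, 4 times in the Tnnt2 window, 2 times in Prox1, once each in Adamts9, Glis3 and C1ql2, and not in the Dsp and Tdo2 windows. Its form CAGATG, counted on both strands and contained in the E-box count, stood in 14.4% of windows, and was present in Prox1 once and in Pla2g2f 2 times. A TATAAA box on either strand was in the Prox1 window, where it reads TTTATA on the strand shown, in the Tdo2 window and in 12.4% of all. The cyclic AMP response element TGACGTCA (1.55% of windows) and the GLI motif GACCACCCA (0.225%) were in none of the 8. The GC content was 72.4% in Dsp, 71.2% in Adamts9, 64.8% in Prox1, 56.8% in Pla2g2f and 54% in Tnnt2, against a median of 52.4% over all windows. These matches are a description of the letters in each window.

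The 8 genes fell into 3 groups by their levels in granule cells. Prox1 and Tdo2 overlapped between the poles. Glis3, C1ql2 and Dsp were read at both poles with no overlap of libraries. Tnnt2, Pla2g2f and Adamts9 had no read at one pole. In all, 6 of the 8 did not overlap between poles. Of the 15549 genes tested in this contrast, 29.8% did not overlap and 19.4% were called, and since this contrast was used to choose the genes nothing is read from that count.

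**Figure D1:**
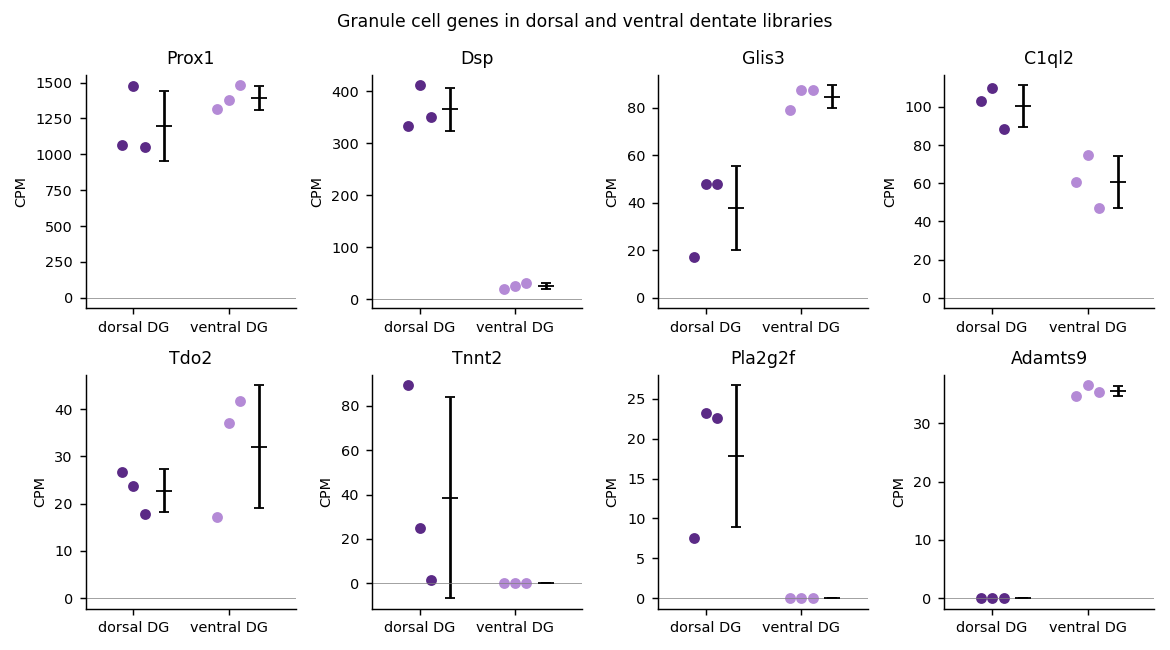
CPM of each gene in the 3 dorsal and 3 ventral granule cell libraries (points), with the mean and SD beside them. The y axes are linear and differ between panels. Prox1 and Tdo2 overlap between the poles, Dsp is high in dorsal and low in ventral cells, and Tnnt2, Pla2g2f and Adamts9 each have a pole at 0.

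Prox1 was the most abundant of the 8. It had 1063, 1478 and 1054 CPM in the dorsal libraries, against 1315, 1382 and 1482 CPM in the ventral ones. The groups overlapped, and the ventral mean was 1.16-fold higher (1198 ± 242 CPM in dorsal and 1393 ± 83.7 CPM in ventral, SD, n = 3 each). On the per-length scale of the authors' FPKM, where levels of different genes can be compared, it had 218.5 ± 67.0 FPKM in dorsal and 259.9 ± 25.4 FPKM in ventral cells, the highest of the 8 genes at both poles.

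Glis3 is a zinc finger transcription factor of the GLI-similar family. It had 17.3, 47.8 and 48.1 CPM in dorsal cells, against 79.1, 87.4 and 87.7 CPM in ventral cells. Every ventral library was above every dorsal one, and dorsal replicate 1 lay well below the other 2. The ventral mean was 2.24-fold higher in CPM, and on the FPKM scale the means were closer, at 13.99 ± 2.20 in dorsal and 20.8 ± 2.00 in ventral cells.

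Dsp codes for desmoplakin, which ties desmosomes to intermediate filaments in epithelium and heart. Dorsal libraries had 334, 413 and 351 CPM, against 19.2, 25.6 and 31.9 CPM in ventral libraries. The lowest dorsal library was far above the highest ventral one, and the dorsal mean was 14.3-fold higher. In FPKM the means were 51.7 ± 8.68 in dorsal and 3.66 ± 1.03 in ventral cells (SD, n = 3 each). Ventral granule cells still held 344, 389 and 559 reads, and their level was above that of every population outside the DG.

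C1ql2 codes for a secreted C1q-like protein that mossy fibres release and that gathers kainate receptors on CA3 dendrites together with neurexins. It had 103, 110.0 and 88.6 CPM in dorsal cells, against 60.7, 74.5 and 47.2 CPM in ventral cells. The groups did not overlap, and the dorsal mean was 1.65-fold higher.

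Tdo2 codes for tryptophan dioxygenase, the liver-type enzyme that opens the kynurenine pathway, and is known as a mark of mature granule cells in mouse brain. It had 26.6, 23.8 and 17.8 CPM in dorsal cells, against 17.2, 37.2 and 41.6 CPM in ventral cells. Ventral replicate 1 lay below all 3 dorsal libraries while the other 2 lay above them, so the 1.41-fold higher ventral mean rests on overlapping groups. On the FPKM scale the libraries did not overlap, with 11.1 to 19.1 in dorsal and 20.1 to 39.7 in ventral cells.

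The last 3 genes were read at one pole and not the other. Tnnt2, the cardiac form of troponin T, had 89.1, 25.1 and 1.64 CPM in dorsal cells (709, 185 and 12 reads), against 0 reads in all 3 ventral libraries. The highest and lowest dorsal libraries differed 54.5-fold, which is wider than the spread of any other of the 8 genes in dorsal cells. Set against the floor of 3 reads per library, the dorsal mean was at least 216-fold higher, or at least 75-fold without replicate 1 and at least 320-fold without replicate 3.

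Pla2g2f codes for a secreted phospholipase A2. It had 7.54, 23.2 and 22.6 CPM in dorsal cells (60, 171 and 166 reads), against 0 reads in all 3 ventral libraries, although these were sequenced more deeply. The dorsal mean was at least 99.7-fold higher. Replicate 1 was the lowest of the dorsal libraries for Pla2g2f and Glis3 and the highest for Tnnt2. That library also stood apart in Dcx, a marker of immature neurons. Dcx had 42.1 CPM in replicate 1 against 5.98 and 6.68 CPM in replicates 2 and 3. Sox11 of the same list went the other way. The 5 immature granule cell markers summed to 15.4 to 42.1 CPM in dorsal libraries, so Dcx made up the whole sum in replicate 1. In replicates 2 and 3 Dcx was below the lowest of these sums, and Igfbpl1, Eomes and Calb2 had no read. The part of immature cells in these values was not tested.

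Adamts9 had the opposite pattern. This gene codes for a secreted metalloproteinase that cuts the proteoglycans versican and aggrecan. It had 0 reads in every dorsal library, against 34.8, 36.5 and 35.3 CPM in the ventral libraries (623, 556 and 619 reads). The ventral libraries were close to one another, and their mean was at least 89.4-fold higher. A pair of genes with exons on the opposite strand of Adamts9 were in the table with 209 and 183 reads over all 48 libraries, and whether counting used strand is not known here. The part of such reads in the Adamts9 counts was not tested. Dcn, a fibroblast marker, also had 2.89, 1.5 and 3.95 CPM in dorsal and 70.7, 95.1 and 70.7 CPM in ventral granule cells. Pdgfrb, a mural cell marker, averaged 0 CPM in dorsal, against 2.19 ± 1.57 CPM in ventral cells. In CA3, where Adamts9 had 26.0 to 38.3 CPM in each of 6 libraries, Dcn did not exceed 0.750 CPM. Dcn was high in other populations too, at 251 to 408 CPM in ventral CA1, where Adamts9 had 0.116 to 3.16 CPM, and at 188 to 525 CPM in accumbens-projecting CA1, where Adamts9 had 0 to 6.60 CPM. The 4 fibroblast and mural markers summed to 71.4 to 98.7 CPM in ventral granule cells, nearly all of it Dcn. The 4 CA3 pyramidal markers summed to 129 to 242 CPM in dorsal and 218 to 283 CPM in ventral granule cells. Whether these pools held fibroblasts, mural cells or CA3 cells, and their part in the Adamts9 levels, was not tested.

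**Figure D2:**
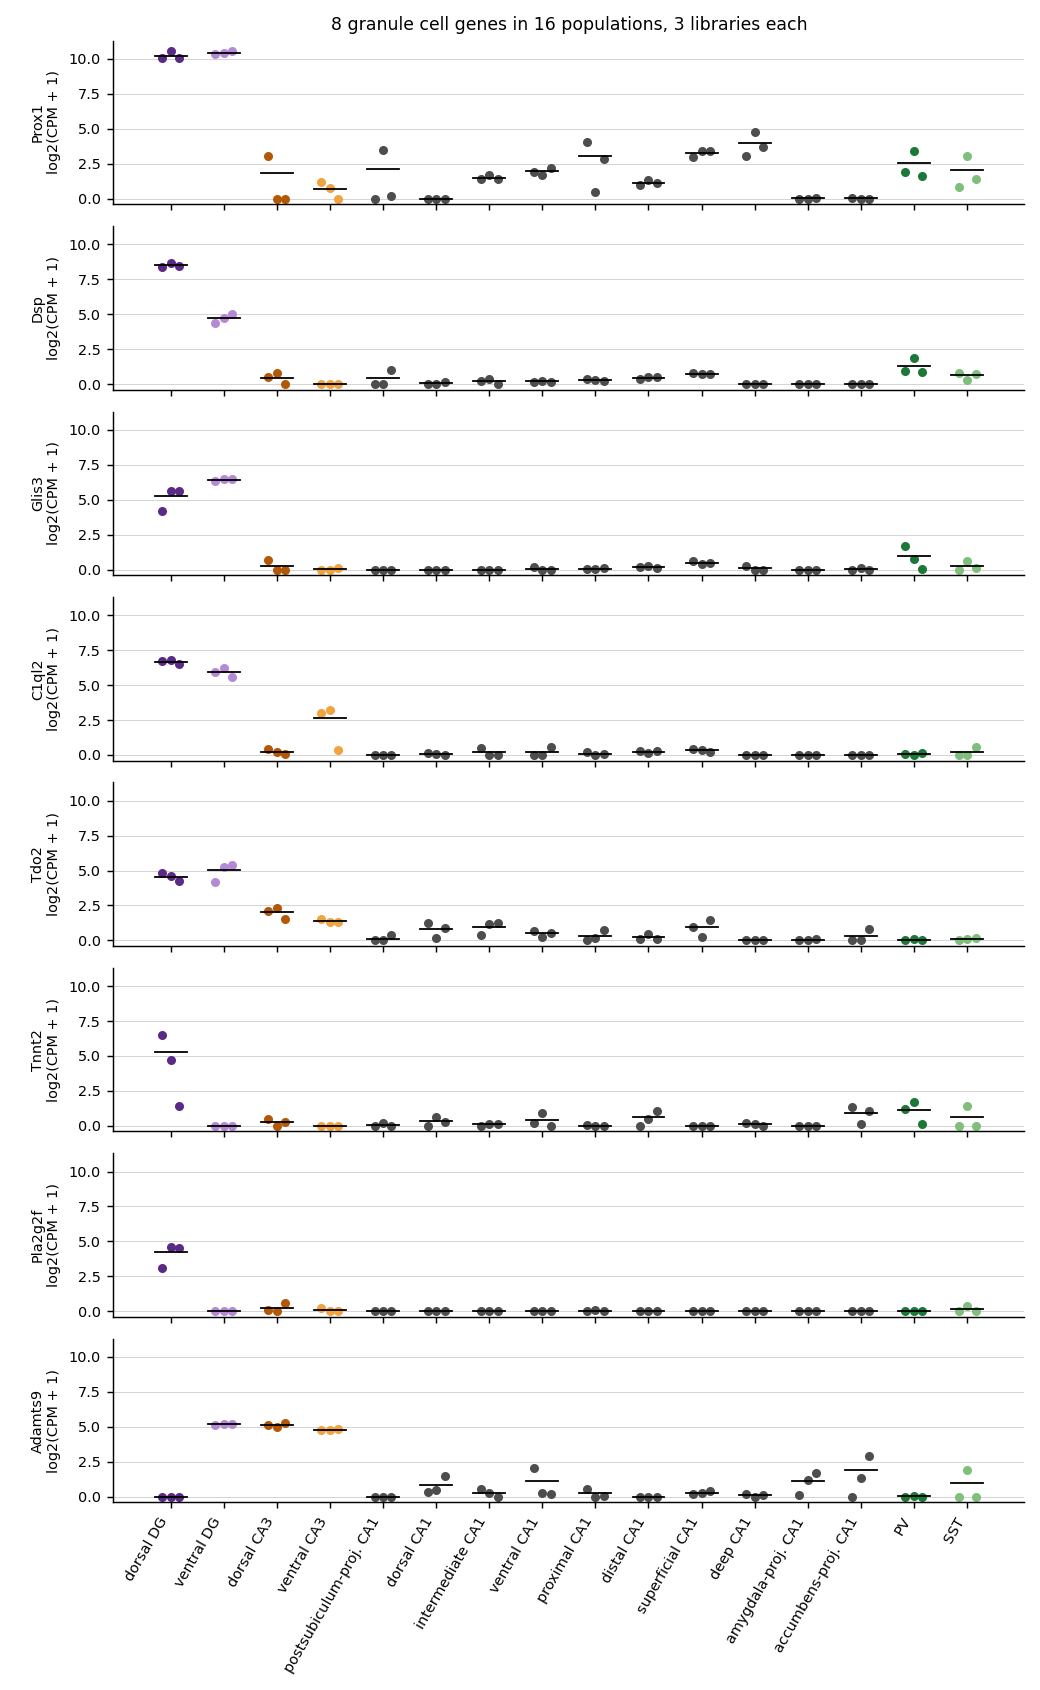
log2(CPM + 1) of each gene in every library (points, 3 per population) with the log2 of the population mean plus 1 (lines). Prox1, Dsp, Glis3, C1ql2 and Tdo2 are higher in both granule cell populations than elsewhere, Tnnt2 and Pla2g2f in dorsal granule cells, and Adamts9 is as high in dorsal CA3 as in ventral granule cells and somewhat lower in ventral CA3.

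Outside the dentate gyrus, the ratio of granule cells to other populations differed widely between the genes. Of the 8, 5 (Prox1, Dsp, Glis3, C1ql2 and Tdo2) had both granule cell means above the mean of every other population. Among 10974 genes that reached a mean of 10 CPM in some population, 578 (5.27%) had that pattern, and 54 had a higher granule cell mean more than 10-fold above every other population. By the ratio of the higher granule cell mean to the highest other mean, Dsp was at rank 3 with 256-fold over PV interneurons, Prox1 at rank 6 with 93.3-fold over deep CA1 and Pla2g2f at rank 7 with 92.6-fold over dorsal CA3. Glis3 was at rank 8 with 85.4-fold over PV interneurons, Tnnt2 at rank 19 with 31.1-fold over PV interneurons, C1ql2 at rank 29 with 19.4-fold over ventral CA3 and Tdo2 at rank 50 with 10.5-fold over dorsal CA3. Adamts9 was at rank 2003, with a ventral granule cell mean 1.04-fold that of dorsal CA3. Leaving out 1 library moved some of these ratios by more than 1.5 times: Tnnt2 to 10.8 without dorsal granule cell replicate 1 and 53.9 without PV replicate 2, Prox1 to 146 without deep CA1 replicate 2, and Dsp to 430 without PV replicate 2. Glis3 moved to 241 without PV replicate 1, and Pla2g2f to 61.7 and 665 without dorsal CA3 replicates 2 and 3. The genes were picked for such patterns, so these places describe them and support nothing.

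Prox1 was also read in most populations outside the DG. After ventral and dorsal granule cells, the order of means ran from deep CA1 (14.9 ± 9.66 CPM) over superficial CA1 (8.69 ± 1.55), proximal CA1 (7.37 ± 7.65), PV (4.83 ± 4.30), postsubiculum-projecting CA1 (3.37 ± 5.73) and SST cells (3.25 ± 3.57) to ventral CA1 (2.85 ± 0.693). Dorsal CA3 followed with 2.50 ± 4.33 CPM, intermediate CA1 with 1.82 ± 0.370, distal CA1 with 1.21 ± 0.234 and ventral CA3 with 0.645 ± 0.628 CPM (SD, n = 3 each). Amygdala-projecting and accumbens-projecting CA1 cells had 1 read each in 3 libraries, and dorsal CA1 had none. In this order, only dorsal granule cells and deep CA1, and intermediate and distal CA1, were neighbours whose libraries did not overlap. Several means rested on 1 library: 140 of 140 Prox1 reads in dorsal CA3 came from replicate 1, and 123 of 125 in postsubiculum-projecting cells from replicate 2.

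Prox1 reads outside the DG stood beside reads of GABAergic markers in some libraries. Gad2, a glutamate decarboxylase of GABAergic neurons, had 115, 374 and 570.2 CPM in the deep CA1 libraries, where Prox1 had 7.17, 25.8 and 11.9 CPM. In postsubiculum-projecting cells Gad2 had 0.325, 58.2 and 0.553 CPM, and Prox1 was read mainly in the same replicate 2, at 9.98 CPM. Elsewhere the markers and Prox1 parted: dorsal CA3 replicate 1 had 7.5 CPM of Prox1 with Gad2 at 0, proximal CA1 replicate 3 had 6.17 CPM of Prox1 with 1.47 CPM of Gad2, and accumbens-projecting replicate 3 had 37.5 CPM of Gad2 with no Prox1 read. The 5 GABAergic markers summed to 158 to 746 CPM in deep CA1, 14.8 to 144 CPM in superficial CA1 and 1.95 to 146 CPM in proximal CA1, against 4446 to 6433 CPM in the PV and SST libraries. Their part in the Prox1 levels was not tested. Prox1os, an antisense RNA whose exons overlap Prox1, had 984 reads over all 48 libraries, against 27070 reads of Prox1 in dorsal and 70550 in ventral granule cells.

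**Figure D3:**
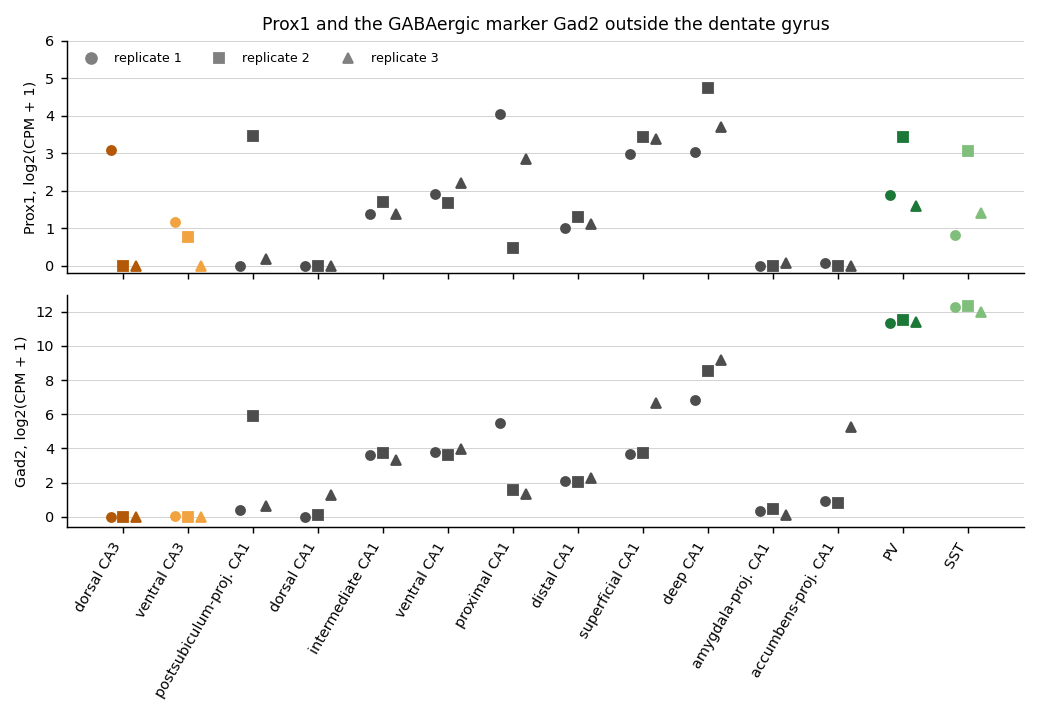
log2(CPM + 1) of Prox1 (top) and of the GABAergic marker Gad2 (bottom) in each library outside the dentate gyrus, with a marker shape per replicate. Deep CA1 and postsubiculum-projecting replicate 2 are high in both, whereas dorsal CA3 replicate 1 has Prox1 without Gad2 and accumbens-projecting replicate 3 has Gad2 without Prox1.

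The remaining genes were close to the floor in most populations. Dsp was over 1 CPM in 1 of the 42 libraries outside the DG, PV replicate 2 with 2.58 CPM, and had no read in 18 of them. The PV mean of 1.43 ± 1.00 CPM was followed by superficial CA1 at 0.670 ± 0.0402 CPM, with no overlap between those groups. Glis3 was over 1 CPM in 1 of the 42 libraries, PV replicate 1 with 2.27 CPM, and Pla2g2f in none, with no read in 35. Tnnt2 exceeded 1 CPM in 6 of the 42 and reached 2.29 CPM in PV replicate 2, and no neighbours in its order of means were apart, dorsal granule cells and PV cells included.

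C1ql2, Tdo2 and Adamts9 were also read in CA3. C1ql2 had 0.321, 0.145 and 0.0523 CPM in dorsal CA3, against 6.90, 8.34 and 0.310 CPM in ventral CA3, and exceeded 1 CPM in no other population outside the DG. Tdo2 had 3.21, 4.05 and 1.83 CPM in dorsal CA3 and 1.92, 1.48 and 1.45 CPM in ventral CA3, and was over 1 CPM in all 6. Adamts9 had 33.9, 30.4 and 38.3 CPM in dorsal CA3 and 26.0, 26.4 and 27.9 CPM in ventral CA3. Ventral granule cells and dorsal CA3 overlapped in Adamts9, dorsal and ventral CA3 did not, and the next population, accumbens-projecting CA1, averaged 2.71 ± 3.45 CPM.

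The long axis of CA3 asks whether the genes that part the poles of the DG do so in its target cells. All 8 passed the filter on low counts in the joint fit of 18 libraries, but 5 of them only through their granule cell reads, and for those the values are given with no test. In a fit of the 6 CA3 libraries alone, 3 genes had enough reads for a test: Prox1, Tdo2 and Adamts9. Of these, 0 were called by edgeR in that fit or the joint one, or by DESeq2 in the joint one, and 0 had an unadjusted p under 0.05 by edgeR. The joint fit called 4.97% of 15549 genes and the fit of CA3 alone 11.5% of 13343. C1ql2 had 0.173 ± 0.137 CPM in dorsal and 5.18 ± 4.28 CPM in ventral CA3. In granule cells the dorsal libraries had been the higher ones, and the difference between the regions was not tested. Ventral CA3 replicate 3 had only 9 reads of C1ql2, within the spread of dorsal CA3. Some mossy cell markers were also read in the ventral libraries, in another order. Calb2 had 77.5, 121 and 323 CPM and Drd2 0.543, 2.89 and 31.1 CPM in ventral CA3 replicates 1 to 3. Calcrl of the same list did not follow them, at 5.36, 8.01 and 4.55 CPM in dorsal and 4.31, 5.86 and 3.10 CPM in ventral CA3. The 5 mossy cell markers summed to 4.55 to 9.37 CPM in dorsal and 82.8 to 390.0 CPM in ventral CA3, with Csf2rb2 at 0 in dorsal CA3, and their part in the C1ql2 levels was not tested.

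Dsp had 8, 15 and 0 reads in dorsal CA3, against 0 in each ventral CA3 library, a mean of 0.384 ± 0.364 CPM in dorsal CA3. Adamts9, at 34.2 ± 3.98 CPM in dorsal, against 26.7 ± 1.01 CPM in ventral CA3, did not pass the test (adjusted p = 0.9253 by edgeR in the joint fit and 0.230 in CA3 alone), and neither did Prox1 or Tdo2.

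Along the long axis of CA1, 2 of the 8 genes had enough reads to be tested, and 15.1% of 12149 genes were called, 7.17% higher and 7.95% lower in dorsal cells. Prox1 was lower in dorsal CA1, with 0 reads in 3 libraries of 22.12 to 30.08 M gene reads, against 22, 12 and 31 reads in ventral libraries of 5.12 to 8.35 M. The ventral mean of 2.85 ± 0.693 CPM was at least 24.0-fold higher than the floor in dorsal CA1 (adjusted p = 0.0004032 by edgeR). Intermediate CA1 lay between them, with 1.59, 2.24 and 1.61 CPM. Gad2 moved with it, at 0, 0.0674 and 1.41 CPM in dorsal, 11.0, 12.2 and 8.87 CPM in intermediate and 12.9, 11.4 and 14.4 CPM in ventral CA1. The 5 GABAergic markers summed to 0.0397 to 1.5 CPM in dorsal and 14.7 to 18.9 CPM in ventral CA1, and their part in the Prox1 result was not tested. Tdo2 averaged 0.781 ± 0.628 CPM in dorsal and 0.426 ± 0.227 CPM in ventral CA1 and did not pass the test (adjusted p = 0.761 by edgeR).

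CA3 and CA1 were compared with each averaged over its dorsal and ventral cells. In a fit of the 12 CA3 and CA1 libraries without granule cells, 4 of the 8 had enough reads (Prox1, C1ql2, Tdo2 and Adamts9). The other 4 passed the filter of the joint fit only through their granule cell reads, and no test is given for them. Of the 4 with enough reads, 3 (C1ql2, Tdo2 and Adamts9) were called higher in CA3, in both fits. The fit without granule cells called 23.6% of 14584 genes in either direction and 13.6% as higher in CA3. The joint fit called 8.15% of all genes higher and 5.34% lower, or 13.5% in either direction. Adamts9 averaged 30.5 ± 4.84 CPM in CA3 and 0.972 ± 1.23 CPM in CA1 (SD, n = 6 each). Its log2 fold change in the joint fit was 4.96 ± 0.58 SE with an adjusted p of 4.013e-06 by edgeR. Without granule cells the adjusted p of Adamts9 was 5.127e-05 by edgeR. Tdo2 averaged 2.33 ± 1.06 CPM in CA3 and 0.603 ± 0.465 CPM in CA1. Its log2 fold change was 1.90 ± 0.47 SE in the joint fit (adjusted p = 0.007527 by edgeR). Without granule cells it was 1.91 ± 0.65 SE (adjusted p = 0.03965 by edgeR). All 6 CA3 libraries of Tdo2 were above all 6 CA1 libraries. C1ql2 averaged 2.68 ± 3.86 CPM in CA3 and 0.102 ± 0.182 CPM in CA1. The SD above the mean comes from 2 ventral CA3 libraries. Its adjusted p by edgeR was 0.02419 in the fit without granule cells and 0.0152 in the joint fit. In the joint fit C1ql2 lost the call without dorsal CA3 replicate 1 or with no filter on low counts, with an adjusted p of up to 0.112.

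The other contrasts gave no call among the 8. Between PV and SST cells 4 genes could be tested and 0 were called by edgeR or DESeq2, nor had any an unadjusted p under 0.05, against 3.51% of 13633 genes called. Dsp averaged 1.43 ± 1.00 CPM in PV and 0.544 ± 0.273 CPM in SST cells, and Glis3 0.992 ± 1.15 CPM in PV and 0.201 ± 0.268 CPM in SST cells. Prox1 averaged 7.37 ± 7.65 CPM in proximal and 1.21 ± 0.234 CPM in distal CA1 (adjusted p = 0.2864 by edgeR), in a contrast with 1.06% of genes called, and was the 1 gene tested. It had an unadjusted p under 0.05, and 0 were called by edgeR or DESeq2. Between superficial and deep CA1, with 2.48% of genes called, Dsp had 17, 15 and 14 reads in superficial against 0 reads in every deep library (adjusted p = 0.1295 by edgeR), and the Prox1 libraries overlapped. Of these 2 genes tested, 0 were called by edgeR or DESeq2, with 1, Dsp, at an unadjusted p under 0.05. Among the 3 genes tested between amygdala-projecting and accumbens-projecting cells, 0 were called by edgeR or DESeq2, and 1, Tnnt2, had an unadjusted p under 0.05 (0 reads in amygdala-projecting and 26, 1 and 18 reads in accumbens-projecting libraries), against 0.0231% of all genes called. None of the 8 had enough reads for a test between postsubiculum-projecting and dorsal CA1, where 10.8% of genes were called. A p above the threshold does not show that levels were alike.

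The other genes of the pathways were tested between the poles of the DG, in the joint fit of 18 libraries, which called 3010 genes. A fit of the 6 granule cell libraries alone called 775, and in it 12 of the genes named here lost their call: Neurod1, Neurod6, Cdh2, Nrxn3, Adgrb1, Adgrb2, Got2, Kyat1, Ahr, Tpm1, Pla2g15 and Timp4. Of 25 transcription factors of granule cells, 22 were tested, 8 were higher and 3 were lower in dorsal cells, and 11 were not called. Over all genes tested, 8.71% were higher and 10.6% lower in dorsal cells. The list's median log2 fold change was 0.35, against −0.05 over all genes. Neurod2, a basic helix-loop-helix factor, averaged 545 ± 166 CPM in dorsal, against 85.5 ± 1.40 CPM in ventral cells (adjusted p = 2.091e-08 by edgeR). Zbtb20, a zinc finger repressor and the most abundant gene of the list, averaged 3406 ± 101 CPM in dorsal, against 2000 ± 155 CPM in ventral cells. Klf9, which responds to glucocorticoid and thyroid hormone, averaged 481 ± 131 and Nfix 559 ± 143 CPM in dorsal cells, against 186 ± 15.2 and 242 ± 9.87 CPM in ventral cells. Etv1 was lower in dorsal cells, at 38.1 ± 1.68 CPM in dorsal, against 94.9 ± 19.3 CPM in ventral cells, as were Neurod1 (38.5 ± 13.2 in dorsal and 80.8 ± 12.7 CPM in ventral) and Neurod6, a factor of pyramidal cells with 0.391 ± 0.246 CPM in dorsal, against 3.78 ± 0.157 CPM in ventral cells. The call of Neurod1 was lost without dorsal replicate 1 and without ventral replicates 2 or 3, with an adjusted p of at most 0.114 over the fits tried.

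All 25 of the other granule cell markers were tested, with 6 higher and 2 lower in dorsal cells and a median log2 fold change of 0.66. Lct, the gene for lactase, averaged 172 ± 19.6 CPM in dorsal, against 6.47 ± 1.5 CPM in ventral cells (log2 fold change 4.77 ± 0.42 SE, adjusted p = 1.371e-07 by edgeR). Fam163b averaged 1013 ± 301 CPM in dorsal, against 231 ± 55.3 CPM in ventral cells, and Pdzd2, a PDZ domain protein, 221 ± 55.9 CPM in dorsal, against 48.3 ± 7.74 CPM in ventral cells. Grm2, a presynaptic glutamate receptor of mossy fibres, averaged 181 ± 51.8 CPM in dorsal, against 50.3 ± 17.2 CPM in ventral cells, and its call was lost without ventral replicate 3 (adjusted p = 0.0545). Trhr, the receptor for thyrotropin-releasing hormone, was lower in dorsal cells, with 0, 4.21 and 0 CPM in dorsal and 155, 220 and 184 CPM in ventral libraries (adjusted p = 0.0005888 by edgeR). Synpr, a synaptic vesicle protein, averaged 159 ± 37.6 CPM in dorsal, against 309 ± 56.3 CPM in ventral cells, a call lost without dorsal replicate 3 or ventral replicates 2 or 3 (adjusted p up to 0.117). Sema5a, a semaphorin with the highest level of this list, had 1296 ± 193 CPM in dorsal, against 796 ± 56.6 CPM in ventral cells and was not called.

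Smaller lists were built around single genes. Around Dsp, 9 of 14 desmosome and partner genes were tested and 1 was called. Cdh2, N-cadherin, was lower in dorsal cells at 122 ± 51.5 CPM in dorsal, against 213 ± 14.5 CPM in ventral cells, a call lost without dorsal replicate 1 or any ventral replicate (adjusted p up to 0.215). Against CA1, Dsg2, a desmosomal cadherin, was higher in DG (7.69 ± 6.83 CPM in DG and 0.258 ± 0.609 CPM in CA1), and so was Ppl, periplakin (6.79 ± 4.38 CPM in DG and 0.195 ± 0.143 CPM in CA1). Plakophilins Pkp2 and Pkp4 were lower in DG than in CA1 and in CA3. Around C1ql2, 14 of 17 C1q-like and cerebellin synaptic genes were tested, with 2 higher and 2 lower in dorsal cells. Nrxn3, a neurexin, was lower in dorsal granule cells, at 118 ± 21.2 CPM in dorsal, against 208 ± 25.1 CPM in ventral cells. Adgrb1 and Adgrb2, relatives of the C1q-like receptor Adgrb3, were higher in dorsal cells, at 319.5 ± 153 and 236 ± 50.7 CPM in dorsal, against 178 ± 8.52 and 164 ± 24.4 CPM in ventral cells. The call of Adgrb1 was lost without dorsal replicate 3 (adjusted p up to 0.103) and that of Adgrb2 without dorsal replicate 1 or ventral replicates 2 or 3 (up to 0.144). C1ql3, a related secreted protein, averaged 348 ± 42.4 CPM in DG, against 60.8 ± 90.3 CPM in CA3 and 99.1 ± 23.5 CPM in CA1, and was called against both.

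Around Tdo2, 9 of 15 genes of tryptophan and kynurenine metabolism were tested between the poles, with 1 higher and 3 lower in dorsal cells. Got2, a mitochondrial aminotransferase, averaged 145 ± 41.9 CPM in dorsal, against 84.8 ± 7.46 CPM in ventral cells. Ido2, an enzyme for the same first step as Tdo2, had 0 reads in dorsal cells and averaged 8.04 ± 5.73 CPM in ventral cells (adjusted p = 7.578e-05 by edgeR). Ahr, a receptor for kynurenine, averaged 5.71 ± 1.06 CPM in dorsal, against 16.4 ± 7.21 CPM in ventral cells, a call lost without ventral replicate 3 (adjusted p up to 0.236). Kyat1, which makes kynurenic acid, was also lower in dorsal cells, at 0.0453 ± 0.0785 CPM in dorsal, against 2.18 ± 1.14 CPM in ventral cells. Around Tnnt2, 7 of 15 troponin and tropomyosin genes were tested and 2 were lower in dorsal cells: Tmod2, a neuronal tropomodulin, averaged 443 ± 48.3 CPM in dorsal, against 757 ± 31.8 CPM in ventral cells, and Tpm1 234 ± 140.0 CPM in dorsal, against 414 ± 24.3 CPM in ventral cells. The call of Tpm1 was lost without dorsal replicates 2 or 3 or any ventral replicate (adjusted p up to 0.221). Around Pla2g2f, 9 of 17 phospholipase A2 genes were tested and 1 was called, Pla2g15, a lysosomal enzyme that was lower in dorsal cells at 0.363 ± 0.516 CPM in dorsal, against 2.37 ± 0.422 CPM in ventral cells. That call was lost without dorsal replicates 1 or 2 or ventral replicates 2 or 3 (adjusted p up to 0.330).

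Around Adamts9, 21 of 26 genes of ADAMTS proteases and their substrates were tested, with 1 higher and 4 lower in dorsal cells. Timp2, an inhibitor of metalloproteinases, averaged 29.5 ± 9.51 CPM in dorsal, against 421 ± 30.1 CPM in ventral cells (log2 fold change −3.80 ± 0.28 SE, adjusted p = 1.468e-08 by edgeR). Timp4, a second inhibitor, averaged 1.22 ± 1.99 CPM in dorsal, against 13.5 ± 2.97 CPM in ventral cells, a call lost without ventral replicate 3 (adjusted p up to 0.199). Adamts5 and Adamts8 had 0 reads in dorsal cells and means of 0.930 ± 0.481 and 1.53 ± 1.64 CPM in ventral cells, and these calls were lost without any 1 of the 6 libraries for Adamts5 (adjusted p up to 0.0941) and without any but ventral replicate 1 for Adamts8 (up to 0.104). Bcan, brevican, was called higher in dorsal cells (7.45 ± 12.8 CPM in dorsal and 0.138 ± 0.0272 CPM in ventral), but the direction turned without dorsal replicate 3, to a log2 fold change of −0.97. Around Glis3, 8 of 13 GLI and hedgehog genes were tested, and 1 was called lower in dorsal cells, Wwtr1, a coactivator of the Hippo pathway that is neither a GLI nor a hedgehog gene, on 0 reads in dorsal and 1.7 ± 2.37 CPM in ventral cells, a call lost without any library but ventral replicate 1 (adjusted p up to 0.189). Bcan, Adamts5, Adamts8 and Wwtr1 had too few reads for a test in the fit of granule cells alone. Ptch1, the hedgehog receptor and the most abundant of these genes, averaged 69.4 ± 19.4 CPM in dorsal, against 43.7 ± 4.61 CPM in ventral cells and was not called.

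**Figure D4:**
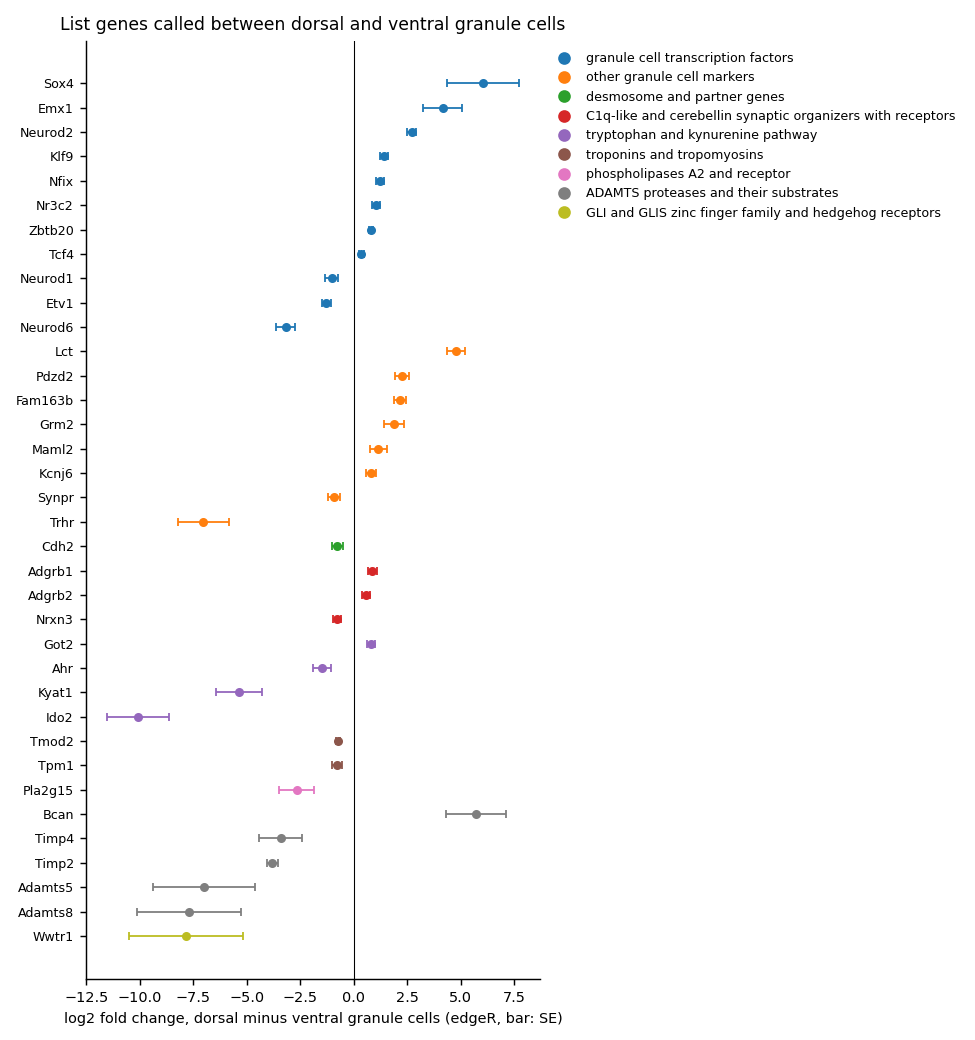
edgeR log2 fold change of called genes of the 9 lists, dorsal minus ventral granule cells, with its SE. Colours give the list. Neurod2, Lct and Fam163b lie to the right of 0 (higher in dorsal cells), and Trhr, Timp2 and Ido2 to the left. The fitted values of Ido2, Adamts5, Adamts8 and Wwtr1, which had no dorsal read, depend on the fit and are no bounds.

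The genes with the most similar pattern over the 16 population means were named by Pearson's r of log2(mean CPM + 1) among 10320 protein genes that reached 10 CPM in a population. The points share libraries and depth and are dominated by the granule cell means, so r is a description. Dsp was most like Stard8 (r = 0.992), Htra4 (0.984) and Bcl2l15 (0.974). Stard8 averaged 41.1 ± 26.9 CPM in dorsal and 6.22 ± 4.95 CPM in ventral granule cells. Prox1 was most like Kcnh4 (0.956), a potassium channel gene, Vwa3a (0.950) and Glis3 (0.936). Glis3 in turn was most like Vwa3a (0.978), Ano2 (0.969), a calcium-activated chloride channel gene, and Gmnc (0.969), which averaged 9.96 ± 5.39 CPM in dorsal, against 53.5 ± 11.2 CPM in ventral cells.

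C1ql2 was most like Mfsd2a (0.992), a lipid transporter gene, Fam160a1 (0.980) and Parvg (0.970), and Tdo2 most like Parvg (0.965), Scnn1a (0.960) and Mfsd2a (0.944). Fam160a1 shared with C1ql2 a ventral CA3 level, of 6.40 CPM on average. Adamts9 was most like Tmem215 (0.919), Slco2a1 (0.913), a prostaglandin transporter gene, and Rap1gap2 (0.898). Slco2a1 averaged 3.04 ± 3.46 CPM in dorsal and 16.4 ± 2.00 CPM in ventral granule cells and 34.6 CPM in dorsal CA3. The matches of the 2 dorsal genes were less secure: Brip1, Eef1akmt3 and Mylk3 for Tnnt2, and Rtp3, Des and Onecut1 for Pla2g2f. Rtp3, Des and Onecut1 had a larger SD than mean in dorsal granule cells, as did Brip1 (10.6 ± 17.0 CPM) and Eef1akmt3 (25.4 ± 42.3 CPM). Among the matches of the other genes, so did Bcl2l15 (15.58 ± 16.75 CPM), Ano2 (13.25 ± 19.61 CPM) and Slco2a1. Of Rtp3, Des and Onecut1, 0 were among the 3 most like Pla2g2f when all 48 libraries were used in place of the 16 means. For Tnnt2 1 of the 3 was kept, for Adamts9 all 3, and for each of the other 5 genes 2.

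**Figure D5:**
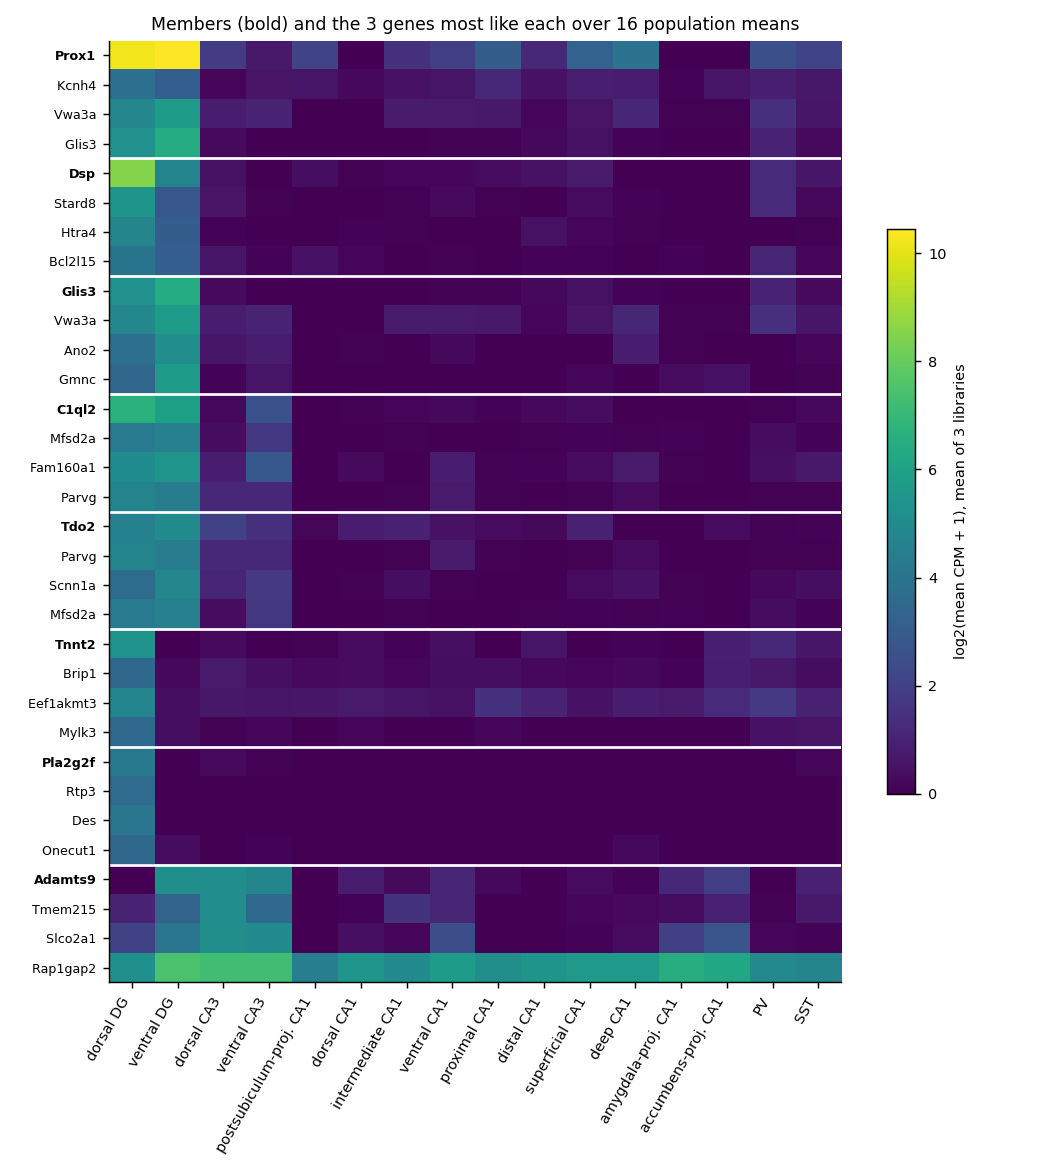
log2(mean CPM + 1) in 16 populations (columns) of the 8 genes (bold) and the 3 genes most like each. The first 2 columns are the granule cells. Most rows are bright in those columns only, C1ql2 and Fam160a1 also in ventral CA3, and the Adamts9 group in both CA3 columns.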

How the data were processed

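RNA of 48 hand-sorted pools of neurons was amplified with the Ovation RNA-seq v2 kit, per the labels' protocols. Tools named without a role, per the submitters' processing notes, were HTSeq, DESeq2, Cuffdiff 2.1.1 and TopHat2 2.0.6. Those notes give mm9 and NCBIM37 as builds. The authors deposited raw read counts per gene, used for every test and for CPM, and FPKM values per library, used for levels per length. Of the FPKM values, 552 in 115 genes were marked as failed, none of them a value of the 8 genes. Gene names were joined by Ensembl identifier from an annotation of another build, for 32897 of 37620 genes, and the only coordinates given are those of RefSeq promoters on GRCm38.p6. ERCC and summary lines were left out of library sizes. Reads outside genes were 20.9% to 46.9%, ERCC 0.0154% to 8.29% and mitochondrial genes 8.27% to 24.5%. Replicates differed beyond sampling noise in every pair, with a chi-square of at least 12.3 per degree of freedom. Floors cover counting error only, because the reads carry no molecular identifiers and amplified copies cannot be told from molecules.

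The 8 genes and the 9 gene lists were chosen with earlier results of these data known. Comparisons used edgeR 4.0.16 in R 4.3.3 (TMM, filterByExpr, robust quasi-likelihood), with Benjamini-Hochberg adjustment over all genes tested and calls at an adjusted p under 0.05. Dorsal and ventral DG, CA3 and CA1 shared 1 fit of 18 libraries. The fit for the long axis of CA1 held 9 libraries, that for the amygdala and accumbens projections 9 with ventral CA1 included, and those of other pairs 6. CPM used TMM over 48 libraries, and a fold against a group with no read was set against 3 reads per library. Fits were also run on simulated data with a spread close to that of the CA1 long-axis fit (biological coefficient of variation 0.359). That is below the 0.554 of the joint fit and the 0.650 of PV against SST. The simulation therefore does not show how fits with such a spread behave. Genes named from a list were, per comparison, up to 4 called per direction with the smallest p and the most abundant, and similar genes were the 3 with the highest r. A called gene that this rule would name is not reported here. Stxbp6 and the markers of other cells were named after their values were seen. Alternatives were DESeq2 1.42.0, other size factors, no filter on low counts, a replicate block, fits of 2 groups, leaving out each library and, chosen after seeing the data, a fit of CA3 and CA1 without granule cells. Replicate numbers follow the columns of deposited counts.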

Additional observations from a re-analysis of the deposited data

Results flagged for a closer look

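Several genes had a dorsal-to-ventral order in granule cells opposite to that in CA3 or CA1, with every library of one pole above every library of the other in each region. The difference between the regions was not tested, and means below are CPM in dorsal and then ventral cells. Of all 15549 genes tested, 29.8% did not overlap between the poles of the DG. The share with opposite orders in DG and another region was not counted, so nothing is read from their number. Adamts9 was chosen through its DG contrast and did not pass the test in CA3. As given above, the DG calls of Adamts8, Nrxn3, Neurod6, Grm2, Synpr, Tpm1 and Ahr were lost in some fits.

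Adamts9 had 0 in dorsal and 35.5 in ventral granule cells, against 34.2 in dorsal and 26.7 in ventral CA3. Adamts8 had 0 in dorsal and 1.53 in ventral granule cells, against 5.08 in dorsal and 0.200 in ventral CA3. In the list around C1ql2, Nrxn3 had 118 in dorsal and 208 in ventral granule cells, against 709 in dorsal and 331 in ventral CA3 and 521 in dorsal and 104 in ventral CA1.

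Among transcription factors, Nfix had 559 in dorsal and 242 in ventral granule cells, against 147 in dorsal and 197 in ventral CA1. Neurod6 had 0.391 in dorsal and 3.78 in ventral granule cells, against 832 in dorsal and 289 in ventral CA3 and 767 in dorsal and 371 in ventral CA1. Among granule cell markers, Pdzd2 had 221 in dorsal and 48.3 in ventral granule cells, against 10.6 in dorsal and 29.7 in ventral CA3 and 2.14 in dorsal and 18.6 in ventral CA1. Grm2 had 181 in dorsal and 50.3 in ventral granule cells, against 0.134 in dorsal CA3, 3.96 in ventral CA3, 0.134 in dorsal CA1 and 14.3 in ventral CA1. Synpr had 159 in dorsal and 309 in ventral granule cells, against 113 in dorsal and 34.7 in ventral CA3.

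Tmod2 had 443 in dorsal and 757 in ventral granule cells, against 1219 in dorsal and 1109 in ventral CA1. Tpm1 had 234 in dorsal and 414 in ventral granule cells, against 455 in dorsal and 362 in ventral CA3 and 621 in dorsal and 341 in ventral CA1. Ido2 had 0 in dorsal and 8.04 in ventral granule cells, against 15.3 in dorsal and 5.43 in ventral CA1. Ahr had 5.71 in dorsal and 16.4 in ventral granule cells, against 33.1 in dorsal and 20.0 in ventral CA3.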

How the results depend on the processing

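Counts of called genes moved by over 1.5 times in some settings, and the cause was not tested. Fits of only the 2 groups called 775 genes between the poles of the DG (3010 in the joint fit), 1540 along CA3 (773) and 0 between amygdala-projecting and accumbens-projecting cells (3). A fit of CA3 and CA1 without granule cells, chosen after seeing the data, called 3439 (2098). DESeq2 called 1118 genes between PV and SST cells (478 by edgeR), 591 between proximal and distal (135), 736 between superficial and deep (311), 199 between amygdala-projecting and accumbens-projecting (3) and 2363 between postsubiculum-projecting and dorsal CA1 (1370). With no filter on low counts the counts were 864, 301, 511 and 180 in the first 4 of these. Leaving out 1 library gave 2002 to 3419 between the poles of the DG, 436 to 659 along CA3, 1361 to 1670 along CA1, 4418 to 5695 for DG against CA1, 4953 to 6256 for DG against CA3 and 1719 to 1903 for CA3 against CA1. It gave 230 to 683 for PV against SST, 16 to 94 for proximal against distal, 85 to 280 for superficial against deep, 0 to 11 for amygdala against accumbens and 498 to 1329 for postsubiculum against dorsal CA1. Counts were more than 1.5 times smaller without ventral DG replicate 3 (2002), without dorsal CA3 replicates 2 or 3 (436 for the last) or ventral CA3 replicate 2, without any PV or superficial library, without any dorsal CA1 library in the postsubiculum contrast, and without any proximal or distal library but distal replicate 3. Between amygdala and accumbens, 0 were called without amygdala replicates 2 or 3 and 11 without accumbens replicate 3. With the replicate number as a block, 2704 genes were called between the poles of the DG (3010 in the joint fit), which is within 1.5 times. Between amygdala-projecting and accumbens-projecting cells 1 was called (3 without the block), the only count to move by over 1.5 times. The replicate numbers were not taken to pair the libraries: deviations of same-numbered libraries from their group means correlated between −0.0455 and 0.0735, and in 0 of 14 pairs of groups did every library correlate best with its own number.

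Some signs turned, in values of which 1, that of Bcan, had been called. Over fits that left out 1 library, Bcan ranged from −0.97 (without dorsal DG replicate 3) to 6.29 in log2 fold change between the poles of the DG. Along CA3, Prox1 ranged from −6.42 and Glis3 from −2.16 (both without dorsal CA3 replicate 1) to 2.93 and 4.84, and Pla2g2f from −0.86 (without dorsal CA3 replicate 3) to 4.75. For DG against CA1, Adamts9 ranged from −1.24 to 0.53 (without ventral CA1 replicate 1) and was 0.030 by DESeq2, against −0.94 in the joint fit, which averages a dorsal pole with no read and a ventral pole on the log scale. For CA3 against CA1, Prox1 ranged from −1.12 and Glis3 from −0.35 (both without dorsal CA3 replicate 1) to 3.40 and 3.57, and Dsp from −1.01 to 0.73 (without dorsal CA1 replicate 3). For PV against SST, Prox1 ranged from −0.46 (without PV replicate 2) to 1.98. For amygdala against accumbens, Prox1 ranged from −1.62 to 1.54 (without accumbens replicate 1), with 0.33 and 0.25 without amygdala replicates 1 and 2, and Adamts9 from −1.97 to 0.65 (without accumbens replicate 3). Of the other values of single genes, 4081 kept their direction and side of the threshold, stayed within 1 SD or SE, or kept all 3 most similar genes. A further 320 kept their direction and lost the call. The last 22 moved by more than 1 SD of a level or 1 SE of a fold change, or did not keep all 3 most similar genes. Depth limited genes under 1 CPM, since 3 reads equalled 0.398 CPM in dorsal granule cells.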
